A study of Caenorhabditis elegans with 16 samples.

Results

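Worms in which *ech-6* was silenced and which ate the fat P-80 (*ech-6* RNAi + P-80, 4 samples) were compared here with worms that received neither treatment (EV + vehicle, 4 samples), over all 19750 genes of the deposited table. These are 8 of the 16 samples of the series, chosen by the RNAi clone and the diet in their labels. The other 8, EV + P-80 and *ech-6* RNAi + vehicle with 4 samples each, were used to estimate the spread between replicates and to say which genes a single treatment had moved. All samples were pools of about 500 whole N2 worms collected on day 1 of adulthood. All worms ate the bacterial strain HT115, carrying either an *ech-6* RNAi clone or the empty vector (EV), on plates with P-80 or with vehicle. The P-80 concentration of the RNA samples was not given in the sources used here. Feeding RNAi lowers a transcript without removing it, and neurons take it up poorly. Since the RNA came from whole worms, fewer cells of a type and less RNA per cell cannot be told apart.

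*ech-6* encodes a mitochondrial enoyl-CoA hydratase, the worm counterpart of mammalian ECHS1. The enzyme adds water to short enoyl-CoAs in the breakdown of valine and other branched-chain amino acids, and it also acts in the propionate shunt, the route by which worms dispose of propionate when vitamin B12 is scarce. P-80 is polysorbate 80, a soluble fat that carries oleic acid. In worms the intestine takes up and stores fat, lysosomal lipases release fatty acids from it, and vitellogenins, the yolk proteins, bring fat made in the intestine to growing oocytes. The study asked how lowered *ech-6* expression changes the response to a surplus of dietary fat. The comparison described here asks which genes stand at the untreated level, and which far from it, when both treatments are given.

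The *ech-6* RNAi + P-80 libraries held 16148184 to 21812234 reads on genes (median 17731469), and the EV + vehicle libraries 15306307 to 27484877 (median 18691478). Values are given as CPM, reads of a gene relative to the size of the library as scaled by the authors (TMM). Differences are given as log2 fold changes of *ech-6* RNAi + P-80 over EV + vehicle, so that a value of 1 is a 2-fold difference. Genes were tested with limma's moderated test on the deposited log2 CPM. Genes whose p-value, adjusted over all 19750 genes, was under 0.05 are said here to be called, to have risen or to have fallen. The median standard error (SE) of a log2 fold change was 0.14. In the library labelled *ech-6* RNAi + vehicle replicate 3, *ech-6* stood at 178 CPM, against 66.4 to 71.8 CPM in the other 3 libraries of that label. That library is in neither of the groups compared here, but it enters the estimate of the spread and every value given for *ech-6* RNAi alone.

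The targeted gene was lower in every *ech-6* RNAi + P-80 sample. *ech-6* (WBGene00001155; WBcel235, III, 9751552 to 9752883, minus strand) had 63.1, 68.3, 72.3 and 61.0 CPM in *ech-6* RNAi + P-80, against 181, 169, 165 and 164 CPM in EV + vehicle. The groups did not overlap, and 39.0% of the EV + vehicle level was left. The log2 fold change was -1.36 (SE 0.21, adjusted p = 8.67e-05), with an SE of 0.075 (adjusted p = 1.83e-09) without the library labelled *ech-6* RNAi + vehicle replicate 3 and 0.058 when only the 8 samples compared were fitted. An exact two-sided permutation test of the 4 against the 4 samples gave p = 0.0286, the smallest it can give. *T05G5.5*, a gene of the same operon that encodes a dephospho-CoA kinase, had 13.2, 13.1, 14.4 and 12.8 CPM in *ech-6* RNAi + P-80 and 19.3, 20.2, 19.3 and 18.4 CPM in EV + vehicle. All 4 samples lay below all 4 of EV + vehicle, and it fell by 0.53 on the log2 scale (SE 0.09, adjusted p = 0.000243). The other operon genes, *vps-53* and *gcc-2*, which encode proteins of vesicle transport, were not called (-0.07, adjusted p = 0.488, and 0.10, adjusted p = 0.185).

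With both treatments 5023 of the 19750 genes (25.4%) were called, of which 2265 (11.5%) were higher and 2758 (14%) lower than in EV + vehicle. Most of these differences were small, with a median absolute log2 fold change of 0.47. Genes called with at least a 2-fold difference are said here to be far from the untreated level: 185 of them (0.937% of all genes) were higher and 1016 (5.14%) lower. In 4132 of the 5023 called genes no sample of one group overlapped the other, and over all genes this held for 5008 (25.4%). P-80 alone moved 3182 genes (16.1%) and *ech-6* RNAi alone 580 (2.94%), each against the same EV + vehicle samples. The 3182 became 2083 without EV + vehicle replicate 1, 1983 without EV + vehicle replicate 4 and 2024 without EV + P-80 replicate 4. The 580 became 208 without EV + vehicle replicate 1, 229 without EV + vehicle replicate 4, and 330, 346 and 265 without *ech-6* RNAi + vehicle replicate 2, 3 and 4. The share of called genes that were higher was 45.1% as deposited, 54.7% with quantile normalization and 70% with every sample centred on the median of its genes. The median log2 fold change of all genes was -0.02 as deposited, 0.05 with quantile normalization and 0.11 with centring.

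**Figure D1:**
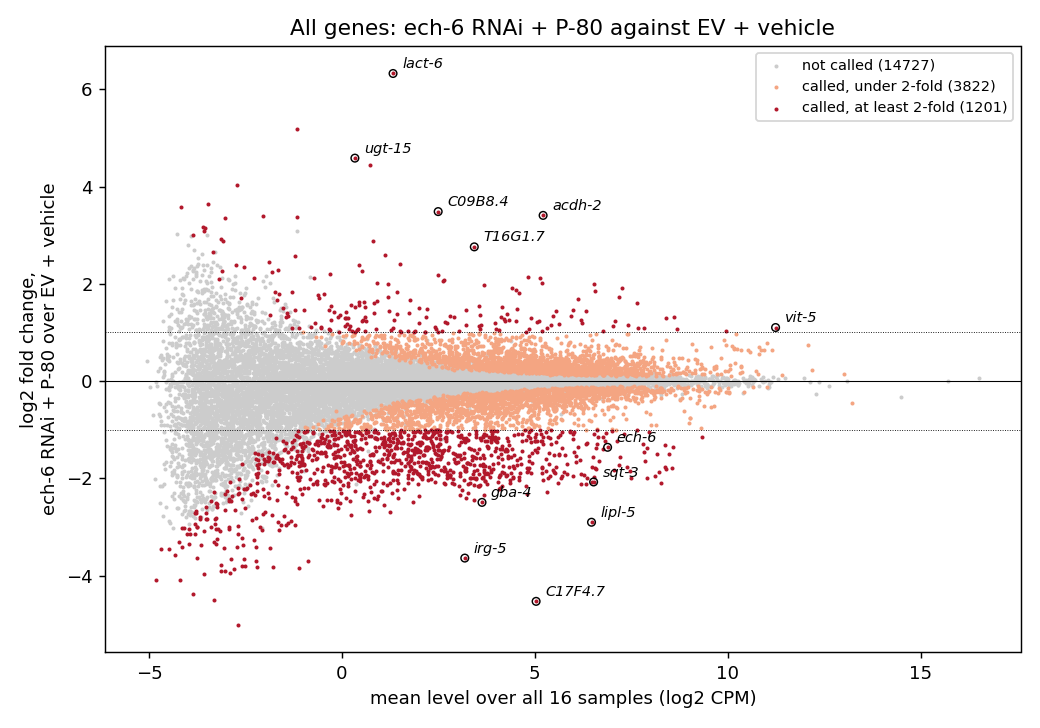
Log2 fold change of *ech-6* RNAi + P-80 over EV + vehicle (y axis) against mean log2 CPM (x axis) for all 19750 genes, with called genes and genes far from the untreated level in colour. Far genes below the untreated level (1016) outnumber those above it (185), and *lact-6* and *C17F4.7* stand farthest out among the labelled genes.

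The genes that stood farthest above the untreated level were mostly enzymes. *lact-6* (WBGene00007358; IV, 17429597 to 17431387), which encodes a protein with a beta-lactamase domain, had 22.1, 21.1, 18.3 and 24.9 CPM in *ech-6* RNAi + P-80, against 0.195, 0.333, 0.220 and 0.298 CPM in EV + vehicle. The gene was close to absent in all 4 EV + vehicle samples, with 3 to 7 reads each against 320 to 469 reads, so that its log2 fold change of 6.32 (SE 0.33, adjusted p = 2.54e-10) rests on few reads. The glucuronosyltransferase gene *ugt-15* was also near its floor in EV + vehicle, with 6.49, 5.45, 6.06 and 4.93 CPM in *ech-6* RNAi + P-80 and 0.130, 0.333, 0.330 and 0.179 CPM in EV + vehicle. It rose by 4.58 (SE 0.30, adjusted p = 5.19e-09). On log2(CPM + 1), a scale that shrinks differences of low genes, *lact-6* stood at 4.16 and *ugt-15* at 2.44, both still called. *T16G1.7*, which has no assigned name, had 28.4, 26.0, 24.8 and 25.5 CPM in *ech-6* RNAi + P-80 against 3.32, 3.85, 4.11 and 4.18 CPM in EV + vehicle. Its replicates lay close together in both groups, and it rose by 2.76 (SE 0.12, adjusted p = 8.46e-12). The short-chain dehydrogenase gene *dhs-26* had 4.82, 5.41, 4.58 and 6.02 CPM in *ech-6* RNAi + P-80 and 0.977, 1.19, 0.660 and 0.657 CPM in EV + vehicle, a rise of 2.60. With P-80 alone the log2 fold changes of *lact-6*, *ugt-15*, *T16G1.7* and *dhs-26* were 6.27, 4.83, 2.76 and 2.20, and with *ech-6* RNAi alone 0.31, 0.21, 0.42 and 0.54, none of the last 4 being called.

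In the other 4 genes at the top, the log2 fold change with *ech-6* RNAi alone stood nearer to that with both treatments than the one with P-80 alone did. *C09B8.4*, a gene without an assigned name, had 12.6, 29.7, 16.6 and 17.5 CPM in *ech-6* RNAi + P-80 and 1.30, 2.09, 1.87 and 1.31 CPM in EV + vehicle. Replicate 2 was the highest and no sample overlapped. *acdh-2*, which encodes an acyl-CoA dehydrogenase, had 65.1, 180, 110 and 90.1 CPM in *ech-6* RNAi + P-80, against 11.1, 8.69, 9.90 and 9.55 CPM in EV + vehicle. Its samples spread widely in *ech-6* RNAi + P-80 and hardly at all in EV + vehicle, and the log2 fold change was 3.41 (SE 0.27, adjusted p = 9.95e-08). For *C09B8.4* the log2 fold change was 3.49 with both treatments, 0.30 with P-80 alone (adjusted p = 0.548) and 3.41 with *ech-6* RNAi alone. For *acdh-2* it was 1.51 with P-80 alone and 2.78 with *ech-6* RNAi alone, and the gene was called higher with both treatments than with P-80 alone (1.89, adjusted p = 0.00111), but not than with *ech-6* RNAi alone (0.63, adjusted p = 0.198). *ugt-32*, a further glucuronosyltransferase gene, had 4.58, 7.39, 3.20 and 4.59 CPM in *ech-6* RNAi + P-80 against 0.586, 0.665, 0.990 and 0.418 CPM in EV + vehicle, and all 4 samples were higher. It rose by 2.87 (SE 0.28, adjusted p = 9.66e-07), and it was called higher with both treatments than with P-80 alone (1.92, adjusted p = 0.00115) and than with *ech-6* RNAi alone (0.96, adjusted p = 0.0414). *B0393.8* completed the 8 highest genes with 6.99, 5.41, 10.9 and 11.1 CPM in *ech-6* RNAi + P-80 and 0.130, 0.190, 2.31 and 0.298 CPM in EV + vehicle. EV + vehicle replicate 3 stood apart from the others, and the log2 fold change of 4.44 had an SE of 1.14 (adjusted p = 0.00679), against 1.42 with P-80 alone and 2.67 with *ech-6* RNAi alone, neither of them called. On log2(CPM + 1) *ugt-32* stood at 1.80 and *B0393.8* at 2.58, both still called. The next gene below these, *parg-2*, had a log2 fold change of 2.42.

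Below the untreated level, the genes farthest out included an infection response gene, genes of lipid hydrolases and genes without a name. *C17F4.7* (WBGene00015913; II, 3245087 to 3246015), which has no assigned name, had 7.36, 6.17, 7.04 and 7.0 CPM in *ech-6* RNAi + P-80, against 165, 158, 160 and 153 CPM in EV + vehicle. The 4 samples of each group were close together, and the gene fell by 4.53 on the log2 scale (SE 0.12, adjusted p = 6.10e-15). *irg-5*, an infection response gene of the intestine, had 1.92, 2.70, 3.09 and 3.04 CPM in *ech-6* RNAi + P-80 and 36.9, 27.8, 32.6 and 35.6 CPM in EV + vehicle. It fell by 3.64 (SE 0.18, adjusted p = 5.96e-11). The lipase gene *lipl-5* had 34.3, 27.6, 32.1 and 29.5 CPM in *ech-6* RNAi + P-80 against 228, 227, 243 and 223 CPM in EV + vehicle, and *gba-4*, which encodes a putative glucosylceramidase of sphingolipid breakdown, had 4.89, 3.97, 6.75 and 5.45 CPM against 27.7, 28.7, 32.3 and 28.1 CPM. Neither gene came near overlap, with log2 fold changes of -2.90 (SE 0.10, adjusted p = 2.02e-13) and -2.49 (SE 0.14, adjusted p = 5.21e-10). With P-80 alone the log2 fold changes of *C17F4.7*, *irg-5*, *lipl-5* and *gba-4* were -4.46, -3.73, -2.34 and -2.05, and with *ech-6* RNAi alone -0.13, -0.07, -0.26 and -0.39, none of the last 4 being called. *lipl-5* was lower with both treatments than with P-80 alone (-0.56, adjusted p = 0.00583), whereas *C17F4.7* and *irg-5* were not called in that contrast (-0.07, adjusted p = 0.895, and 0.09, adjusted p = 0.907).

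The remaining 4 of the 8 lowest genes had few reads in *ech-6* RNAi + P-80. *F20G2.5* had 1.55, 1.22, 1.03 and 0.631 CPM in *ech-6* RNAi + P-80 and 7.23, 4.51, 7.77 and 8.54 CPM in EV + vehicle. It fell by 2.68 (SE 0.28, adjusted p = 2.31e-06), and it was called lower with each treatment alone as well (-1.91 with P-80 and -1.46 with *ech-6* RNAi). *grd-11*, a gene of the hedgehog-related family that worms express mainly in epithelia, had 0.309, 0.406, 0.744 and 0.860 CPM in *ech-6* RNAi + P-80 against 4.49, 2.57, 3.01 and 4.24 CPM in EV + vehicle, and fell by 2.68. The cytochrome P450 gene *cyp-37B1* had 0.804, 0.721, 1.03 and 0.917 CPM in *ech-6* RNAi + P-80 and 5.28, 5.84, 4.69 and 4.54 CPM in EV + vehicle, and fell by 2.54. For *grd-11* and *cyp-37B1* the log2 fold changes were -1.26 and -1.88 with P-80 alone, and -0.42 and -0.60 with *ech-6* RNAi alone, the last 2 not being called. *F55C10.4*, which encodes a member of a glycosyltransferase family, had 0.866, 0.451, 1.66 and 0.0573 CPM in *ech-6* RNAi + P-80 against 3.26, 2.38, 2.93 and 4.24 CPM in EV + vehicle, with 1 read in replicate 4 of *ech-6* RNAi + P-80. Its log2 fold change of -2.75 (SE 0.71, adjusted p = 0.00722) ran from -3.37 to -1.32 over the alternative settings, with -1.32 on log2(CPM + 1), where *grd-11* stood at -1.53. The next gene above these, *D1014.6*, had a log2 fold change of -2.49.

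**Figure D2:**
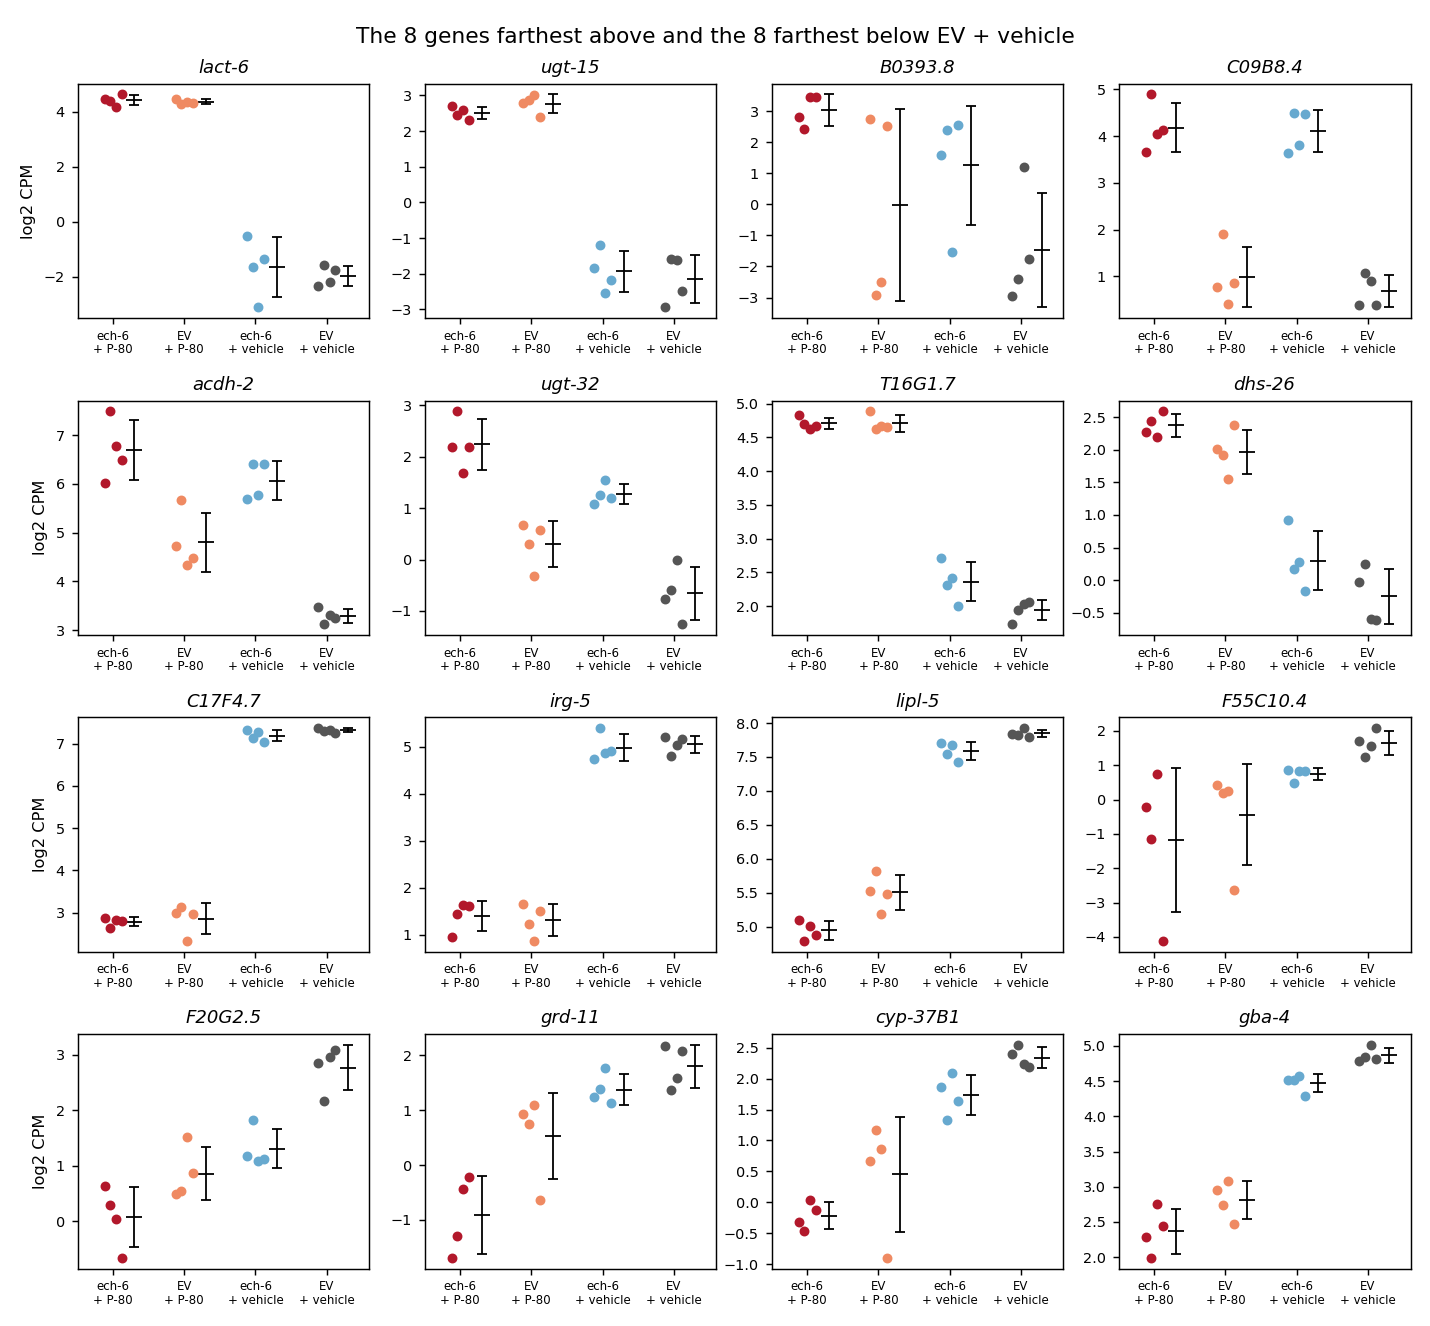
Log2 CPM in each sample (points; bars are the mean ± SD of 4 samples) of the 8 genes farthest above and the 8 farthest below the untreated level, with *ech-6* RNAi + P-80 first and EV + vehicle last. *lact-6*, *ugt-15*, *C17F4.7* and *irg-5* lie close together in both P-80 groups, while *C09B8.4* lies close together in both *ech-6* RNAi groups.

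Over the far genes as a set, the median log2 fold changes of the single treatments lay between the untreated level and the combined group. The 185 far higher genes had a median of 1.39 with both treatments, 0.97 with P-80 alone and 0.75 with *ech-6* RNAi alone. In the 1016 far lower genes the medians were -1.64, -1.11 and -0.55. Since the far genes were chosen on the first of these values and all contrasts share the EV + vehicle samples, these medians are a description and carry no test. Of the far genes, 135 of the higher and 726 of the lower averaged at least 1 CPM. Set directly against the single treatments, *ech-6* RNAi + P-80 had 94 genes higher and 44 lower than EV + P-80, and 519 higher and 905 lower than *ech-6* RNAi + vehicle. These counts moved with single libraries. The 44 became 23 without EV + P-80 replicate 1, 207 without EV + P-80 replicate 4 and 101 without *ech-6* RNAi + P-80 replicate 3. Against *ech-6* RNAi + vehicle, 258 to 327 genes were higher and 350 to 456 lower without any of *ech-6* RNAi + vehicle replicates 2, 3 and 4 or *ech-6* RNAi + P-80 replicates 1, 2 and 4, and 1370 were lower without *ech-6* RNAi + P-80 replicate 3.

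No gene met the definition of being back at the untreated level. A gene counted as back when a single treatment had moved it at least 2-fold, when it was called the opposite way in *ech-6* RNAi + P-80 against that treatment, and when the 95% interval of its difference from EV + vehicle lay inside a 1.5-fold margin. Of the 656 genes that P-80 alone moved at least 2-fold, 0 were back and 567 were still far from EV + vehicle with both treatments. Of the 68 genes that *ech-6* RNAi alone moved that far, 0 were back and 55 were still far. Since the single and the combined contrasts share the EV + vehicle samples on which the shifts were chosen, a shift tends to recur in both, and the counts are a description with no test. The 656 became 346 (295 still far) without EV + P-80 replicate 4, and the 68 became 43 (40 still far) without *ech-6* RNAi + vehicle replicate 4. In none of these genes did the interval lie inside the margin, whereas it did in 9667 (48.9%) of all genes. The interaction, the test of whether the P-80 effect differs between *ech-6* RNAi and EV worms, was called by limma in 0 genes, against 1168 genes at an unadjusted p below 0.05. The interaction was called in 2 genes without EV + P-80 replicate 4 and in 1 without EV + vehicle replicate 3 or *ech-6* RNAi + vehicle replicate 3. With the library labelled *ech-6* RNAi + vehicle replicate 3 left out, 65 genes were moved at least 2-fold by *ech-6* RNAi alone and 0 were back.

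Only 4 of these strongly moved genes were called the opposite way against the single treatment, of which *mtl-2*, *Y37H2B.1* and *F55G11.7* are named after their values were seen. *mtl-2*, which encodes a metallothionein that binds metal ions, had 4.02, 7.80, 4.75 and 5.62 CPM in *ech-6* RNAi + P-80 and 7.88, 7.41, 7.59 and 6.51 CPM in EV + vehicle. The groups overlapped through replicate 2 of *ech-6* RNAi + P-80, and the log2 fold change was -0.45 (SE 0.16, adjusted p = 0.0474), a call lost under most of the other settings (adjusted p from 0.00337 to 0.177). With P-80 alone it was -1.54 and with *ech-6* RNAi alone 0.62, both called, so that *mtl-2* stood between its levels under the single treatments. *lipl-4*, a lysosomal lipase gene, had 1.11, 1.13, 1.83 and 0.975 CPM in *ech-6* RNAi + P-80 against 1.04, 1.19, 1.72 and 1.37 CPM in EV + vehicle. The groups overlapped fully and the log2 fold change was -0.10 (95% interval -0.65 to 0.46), while with *ech-6* RNAi alone it was -1.10 (adjusted p = 0.0293), and with both treatments it was called higher than with *ech-6* RNAi alone (1.01, adjusted p = 0.0265). Each sample held 16 to 47 reads of *lipl-4*, and the lower end of its interval passed the 1.5-fold margin. *Y37H2B.1* and *F55G11.7*, with no assigned names, also had under 50 reads per sample. *Y37H2B.1* had 0.680, 0.496, 0.915 and 0.803 CPM in *ech-6* RNAi + P-80 and 0.586, 0.523, 0.587 and 0.955 CPM in EV + vehicle, and its log2 fold change was 0.13 (95% interval -0.54 to 0.80), against -1.5 with P-80 alone. *F55G11.7* had 0.618, 1.98, 0.744 and 1.49 CPM in *ech-6* RNAi + P-80 and 0.521, 0.618, 0.330 and 1.01 CPM in EV + vehicle, a log2 fold change of 0.90 (95% interval -0.09 to 1.88), against -1.55 with P-80 alone.

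When single-treatment shifts of any size were allowed, a rule added after the data were seen, 14 of 3182 genes were back after a shift by P-80 and 9 of 580 after a shift by *ech-6* RNAi. Under either rule the shift and the opposite call share the single-treatment samples. Spread in those samples can meet both at once, so that the counts and the genes named are a description with no test. *elo-2*, an elongase gene of palmitate elongation, had 115.0, 111.6, 119.4 and 119.1 CPM in *ech-6* RNAi + P-80 against 104.1, 106.8, 113.8 and 103.3 CPM in EV + vehicle. Only the lowest sample with both treatments fell below the highest of EV + vehicle, and the log2 fold change was 0.12 (95% interval 0.02 to 0.22, adjusted p = 0.0665). P-80 alone raised it by 0.49, and with both treatments it was lower than with P-80 alone (-0.37, adjusted p = 0.000283). *elo-5*, an elongase gene of branched-chain fatty acid synthesis named after its values were seen, had 138, 136, 138 and 136 CPM in *ech-6* RNAi + P-80 and 132, 134, 139 and 127 CPM in EV + vehicle. Its log2 fold change was 0.04 (95% interval -0.05 to 0.13), against 0.34 with P-80 alone. With centring both genes were called higher with both treatments (0.24 and 0.17). *elo-2* was also called higher with a 1 CPM minimum and without EV + vehicle replicate 3.

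The other genes back after P-80 by the wider rule had shifts of either sign. The arginine kinase gene *argk-1* stood at -0.11 with both treatments and at 0.47 with P-80 alone. The C-type lectin gene *clec-67* had 34.7, 46.4, 37.3 and 33 CPM in *ech-6* RNAi + P-80 against 34.3, 31.3, 36.1 and 35.2 CPM in EV + vehicle, with overlap between the groups. Its log2 fold change was 0.14, against -0.55 with P-80 alone. *oac-6*, an O-acyltransferase gene, and *gst-38*, a glutathione S-transferase gene, stood at 0.05 and 0.13 with both treatments and at -0.77 and -0.75 with P-80 alone. *cysl-2*, a cysteine synthase gene, met the rule while also being called lower (-0.23, adjusted p = 0.0303). The call was lost with centring (-0.10), without the trend, without EV + vehicle replicate 1 or 2, and without *ech-6* RNAi + P-80 replicate 2 or 4. The remaining 7 were *C29F3.7*, *R144.15*, *ZK185.9*, *ldp-1*, *lfor-1*, *rpl-41.2* and *rpr-1*.

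After a shift by *ech-6* RNAi, the wider rule named 9 genes, among them those of a protease, a lysozyme and a ferritin. *cpr-4*, which encodes a cathepsin B-like protease, had 211, 128, 145 and 145 CPM in *ech-6* RNAi + P-80 and 151, 148, 149 and 135 CPM in EV + vehicle. Replicate 1 stood above every EV + vehicle sample and replicate 2 below, so that the groups overlapped, and the log2 fold change was 0.08 (95% interval -0.25 to 0.42), against -0.63 with *ech-6* RNAi alone. *lys-4*, a lysozyme gene, had 56.7, 31.3, 33.8 and 35.5 CPM in *ech-6* RNAi + P-80 against 37.1, 41.3, 36.4 and 33.6 CPM in EV + vehicle, with replicate 1 again the highest. Its log2 fold change was 0.05, against -0.64 with *ech-6* RNAi alone. The secreted protein gene *scl-2* and *C33H5.13* stood at 0.04 and 0.11 with both treatments, against -0.56 and -0.46 with *ech-6* RNAi alone. *C14C6.5* stood at 0.29 (adjusted p = 0.122), against -0.64 with *ech-6* RNAi alone, and it was called higher with quantile normalization and with centring. *ftn-2*, the gene of an iron-storing ferritin, named after its values were seen, had 160, 133, 151 and 149 CPM in *ech-6* RNAi + P-80 and 168, 146, 142 and 149 CPM in EV + vehicle, which overlapped fully. Its log2 fold change was -0.03 (95% interval -0.17 to 0.11), against -0.31 with *ech-6* RNAi alone. The remaining 3 were *K06G5.1*, *Y119D3B.21* and *Y17G7B.8*.

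**Figure D3:**
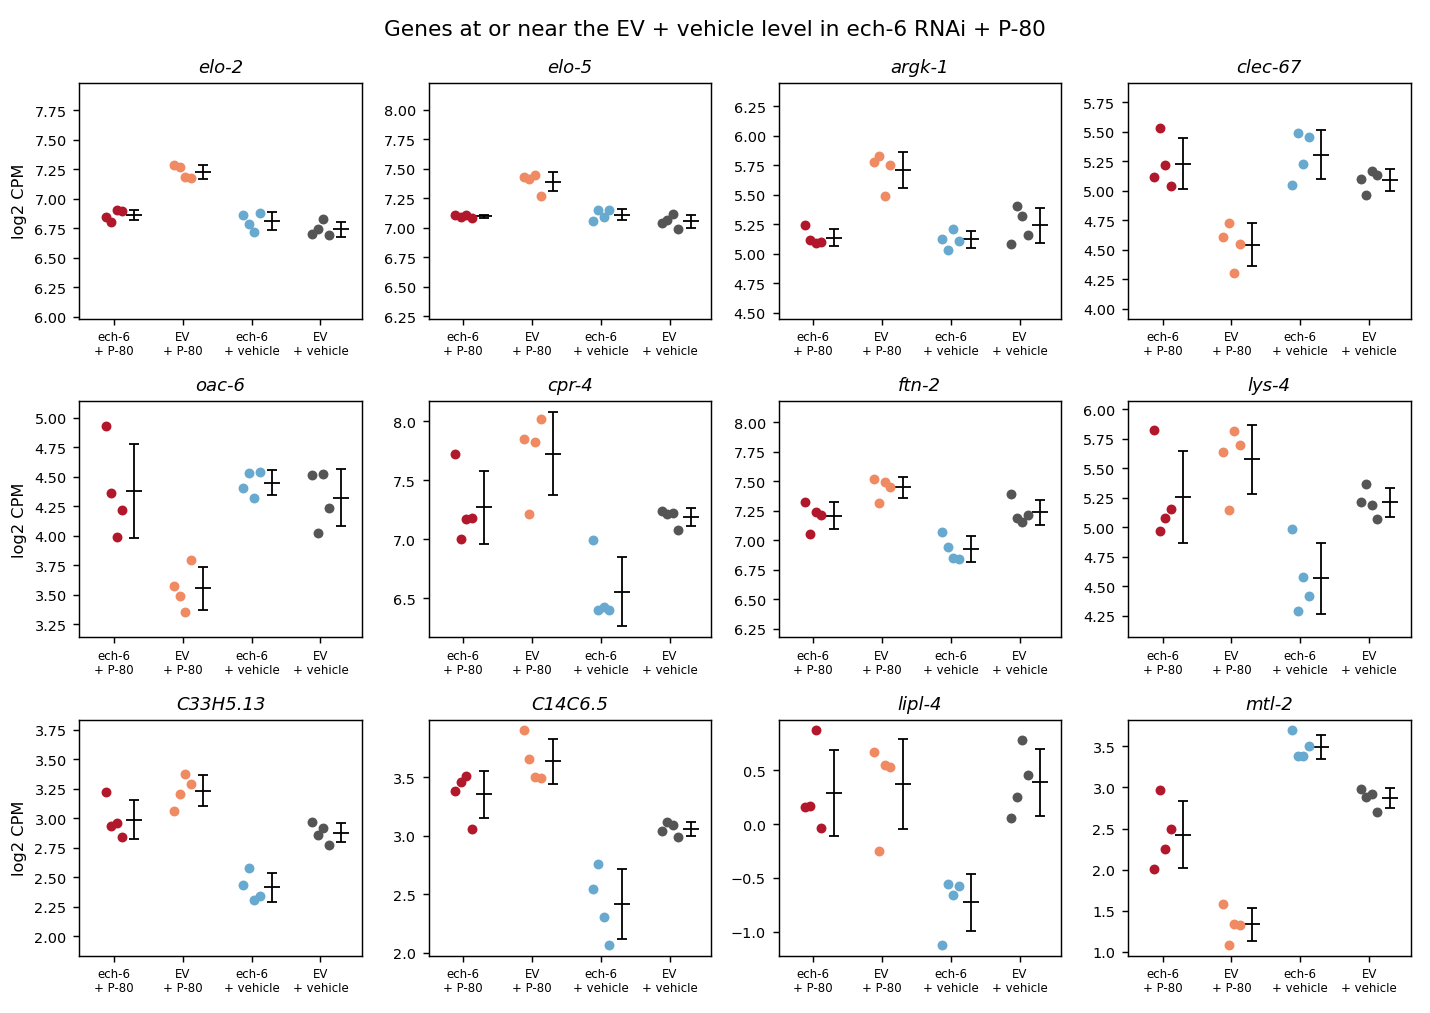
Log2 CPM in each sample (points; bars are the mean ± SD of 4 samples) of 12 genes in which *ech-6* RNAi + P-80 stood near EV + vehicle while a single treatment did not, in the same group order. *elo-2* and *elo-5* are highest in EV + P-80, *ftn-2* and *lipl-4* are lowest in *ech-6* RNAi + vehicle, and *mtl-2* lies below EV + vehicle in EV + P-80 and above it in *ech-6* RNAi + vehicle.

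The counts by the wider rule moved with single libraries. For P-80 the count of 14 was 7 without EV + vehicle replicate 4, 8 without EV + vehicle replicate 3, 9 without EV + P-80 replicate 1, EV + P-80 replicate 4 or *ech-6* RNAi + P-80 replicate 2, and 26 without EV + P-80 replicate 2. For *ech-6* RNAi the count of 9 was 1 without EV + vehicle replicate 1 or *ech-6* RNAi + vehicle replicate 4, 3 without *ech-6* RNAi + P-80 replicate 1 or replicate 4, and 4 without EV + vehicle replicate 3 or *ech-6* RNAi + vehicle replicate 2 or replicate 3. It was 5 without EV + vehicle replicate 4, 14 without EV + P-80 replicate 2 and 20 without *ech-6* RNAi + vehicle replicate 1.

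The genes of the pathway in which ECH-6 acts were higher with both treatments, apart from *ech-6* itself. Of the 5 genes of the propionate shunt, 4 were higher and 1 lower, against 11.5% higher and 14% lower over all genes, with a list median of 0.69 against -0.02. *acdh-1*, the acyl-CoA dehydrogenase gene of the first step, had 193, 491, 340 and 307 CPM in *ech-6* RNAi + P-80, against 126, 82.3, 109 and 100 CPM in EV + vehicle. Every sample was higher, with a wide spread among them, and the log2 fold change was 1.61 (SE 0.26, adjusted p = 0.000147). *hphd-1*, the hydroxyacid-oxoacid transhydrogenase gene, had 237, 385, 316 and 290 CPM in *ech-6* RNAi + P-80 and 148, 140, 141 and 141 CPM in EV + vehicle, and *hach-1*, the hydrolase gene of the step after ECH-6, had 120, 171, 155 and 140 CPM against 93.0, 88.5, 92.1 and 86.8 CPM. In all 3 genes replicate 1 was the lowest and replicate 2 the highest of *ech-6* RNAi + P-80, and *hphd-1* and *hach-1* rose by 1.09 and 0.69. For *acdh-1*, *hphd-1* and *hach-1* the log2 fold changes with *ech-6* RNAi alone were 2.03, 1.33 and 0.75, all called, and with P-80 alone 0.16, 0.29 and 0.23, none called. With both treatments none of the 3 was called against *ech-6* RNAi + vehicle, with differences of -0.42, -0.25 and -0.06.

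Of 18 genes of valine, leucine and isoleucine breakdown, 8 were higher and 2 lower (44.4% and 11.1%, against 11.5% and 14% of all genes), with a median of 0.10. *alh-8*, the semialdehyde dehydrogenase gene at the end of valine breakdown, named after its values were seen, rose by 0.45 (SE 0.05, adjusted p = 8.06e-06). *hacd-1*, a hydroxyacyl-CoA dehydrogenase gene, had 26.7, 26.8, 30 and 28.1 CPM in *ech-6* RNAi + P-80 against 55.2, 59.9, 54.5 and 55.6 CPM in EV + vehicle. It fell by 1.01 without overlap, against -0.38 with P-80 alone and -0.16 with *ech-6* RNAi alone, and it was lower with both treatments than with either one (-0.63 against EV + P-80, adjusted p = 3.08e-05, and -0.85 against *ech-6* RNAi + vehicle, adjusted p = 5.25e-08). In the vitamin B12-dependent route of propionate breakdown 1 of 9 genes rose (11.1%, against 11.5% of all genes), *mmaa-1*, by 0.29. Among the 10 enoyl-CoA hydratases, *ech-9* (adjusted p = 0.00264) and *ech-1.1* (0.56, adjusted p = 0.000587) rose. *ech-9* had 7.36, 6.17, 3.15 and 2.87 CPM in *ech-6* RNAi + P-80 and 1.37, 2.61, 1.43 and 2.45 CPM in EV + vehicle, with its 4 values split into a higher and a lower pair. *ech-7* was called at 0.22 (adjusted p = 0.0401), a call lost with any of 5 libraries left out, EV + vehicle replicates 1, 2 and 4 and *ech-6* RNAi + P-80 replicates 1 and 3. It was also lost without the trend, with only the 8 samples compared, with sample weights and with voom. *ech-1.1* can share reads with its close relative *ech-1.2*, which was not called (-0.02).

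Of the 7 lysosomal lipase genes, 3 were higher and 3 lower (42.9% each, against 11.5% and 14% of all genes), and *lipl-4* was not called. *lipl-1* had 32.9, 26.4, 28 and 26.8 CPM in *ech-6* RNAi + P-80 against 10.6, 10.5, 10 and 8.72 CPM in EV + vehicle. The rise of 1.52 (SE 0.10, adjusted p = 5.23e-09) held in all 4 samples, and with P-80 alone it was 1.73. *lipl-3*, with 7 to 37 reads per sample, rose by 1.30 and *lipl-7* by 0.37, whereas *lipl-6* (-1.49) and *lipl-2* (-0.91, named after its values were seen) fell alongside *lipl-5*. In sphingolipid breakdown 3 of 12 genes were higher and 2 lower (25% and 16.7%, against 11.5% and 14% of all genes), or 5 and 1 with centring. The sphingomyelinase genes *asm-3* (1.88, adjusted p = 1.04e-06) and *asm-2* (adjusted p = 7.18e-07) rose, as did the acid ceramidase gene *asah-1* (0.91, adjusted p = 8.43e-06). *asm-3* had 49.1, 30.5, 43.6 and 42.6 CPM in *ech-6* RNAi + P-80 and 10.2, 12.6, 12.1 and 9.73 CPM in EV + vehicle, without overlap, and with P-80 alone it stood at 1.86 on the log2 scale. *asm-2* had 31.1, 28.3, 30.8 and 26.2 CPM in *ech-6* RNAi + P-80 and 9.71, 14.3, 13.8 and 11.5 CPM in EV + vehicle. The 3 genes that rose and *gba-4*, which fell, thus stood on opposite sides of the untreated level.

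Of 26 lysosomal protease genes 8 were higher and 5 lower (30.8% and 19.2%, against 11.5% and 14% of all genes), or 11 and 3 with centring. The aspartyl protease gene *asp-12* had 5.38, 5.95, 3.6 and 4.59 CPM in *ech-6* RNAi + P-80 against 1.5, 1.09, 1.14 and 1.07 CPM in EV + vehicle, and rose by 2.0 (adjusted p = 1.08e-06), whereas its relative *asp-17* fell by 1.7 (adjusted p = 0.000164). The cathepsin B-like gene *cpr-5* had 446, 379, 365 and 365 CPM in *ech-6* RNAi + P-80 and 252, 255, 254 and 229 CPM in EV + vehicle. It rose by 0.65 without overlap, as with P-80 alone (0.69). *cpr-1* was called at 0.57 (adjusted p = 0.0193), but not without EV + vehicle replicate 4 (0.51) or without *ech-6* RNAi + P-80 replicate 1 (0.35), which stood at 113 CPM while the other 3 samples lay between 56.2 and 66.8 CPM. Its call was also lost in limma without the trend and with robust estimation. Of 21 subunit genes of the vacuolar ATPase, which acidifies lysosomes, 7 were higher and 1 lower (33.3% and 4.76%, against 11.5% and 14% of all genes). Without replicate 3 of EV + vehicle, EV + P-80 or *ech-6* RNAi + P-80, 2 were lower. When EV + vehicle replicate 1 or replicate 4 was left out 4 were higher, and with centring 17 were higher. The differences of these genes ran from -0.28 in *unc-32* to 0.33 in *vha-7*, which encode variants of the same membrane subunit. Of 29 autophagy genes 3 were higher and 6 lower (10.3% and 20.7%, against 11.5% and 14% of all genes). These became 12 and 4 with centring, and 1 was higher when EV + vehicle replicate 1 or *ech-6* RNAi + P-80 replicate 1 or replicate 2 was left out. Among the lower ones were *hlh-30*, the gene of a transcription factor that controls lysosomal genes, at -0.54 (adjusted p = 2.72e-05), and *epg-2*, an adaptor gene of protein aggregate clearance, at -0.64.

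In fatty acid synthesis, desaturation and elongation 5 of 25 genes were higher and 4 lower (20% and 16%, against 11.5% and 14% of all genes), which became 9 and 1 with centring. *fat-5*, the desaturase gene that acts on palmitate, had 5.13, 3.11, 2.63 and 3.27 CPM in *ech-6* RNAi + P-80 against 0.521, 0.475, 0.697 and 1.01 CPM in EV + vehicle. It rose by 2.38 (SE 0.33, adjusted p = 4.56e-05), against 2.4 with P-80 alone and -0.61, not called, with *ech-6* RNAi alone. The delta-6 desaturase gene *fat-3* had 221, 193, 190 and 203 CPM in *ech-6* RNAi + P-80 and 120, 132, 130 and 120 CPM in EV + vehicle, a rise of 0.68. By contrast, the genes of the desaturases that make oleate from stearate, *fat-6* and *fat-7*, named after their values were seen, stood at -0.03 (95% interval -0.29 to 0.23) and -0.00 (95% interval -0.67 to 0.66). The elongase gene *elo-3* fell by 0.28.

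Of 56 genes of fatty acid activation and beta-oxidation 15 were higher and 21 lower (26.8% and 37.5%, against 11.5% and 14% of all genes). With centring 23 were higher and 14 lower, so that the list median changed sign with the scaling (-0.06 as deposited, 0.07 centred). *cpt-5*, a carnitine palmitoyltransferase gene, had 40.8, 32.9, 42.3 and 40.7 CPM in *ech-6* RNAi + P-80 against 9.90, 9.93, 11.5 and 10.3 CPM in EV + vehicle, and rose by 1.91 (SE 0.10, adjusted p = 4.49e-10). Next to *acdh-2*, it was the gene of the list farthest above the untreated level. *acdh-6*, a further acyl-CoA dehydrogenase gene, had 5.07, 4.06, 7.32 and 4.82 CPM in *ech-6* RNAi + P-80 and 18.5, 14.3, 15.1 and 20.9 CPM in EV + vehicle, and fell by 1.71 (SE 0.21, adjusted p = 1.06e-05). Of the 13 genes of triglyceride storage 3 were higher and 3 lower (23.1% each, against 11.5% and 14% of all genes), or 8 and 0 with centring. Their log2 fold changes ran from -0.31 to 0.22. Only 1 of them was higher when EV + vehicle replicate 1 or replicate 4 or *ech-6* RNAi + P-80 replicate 2 or replicate 4 was left out, and only 1 lower without *ech-6* RNAi + P-80 replicate 2. Of 9 lipid-binding protein genes 2 were higher and 0 lower (22.2% and 0%, against 11.5% and 14% of all genes), *lbp-1* (0.85) and *lbp-2* (0.55). The other 7 of that family were not called.

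All 6 vitellogenin genes and the yolk receptor gene *rme-2* were higher, against 11.5% of all genes, with a list median of 0.73. With P-80 alone all 7 were called higher as well (median 0.82), and with *ech-6* RNAi alone 0 were (median 0.15). *vit-5* had 4067, 3049, 3174 and 3418 CPM in *ech-6* RNAi + P-80, against 1579, 1879, 1697 and 1262 CPM in EV + vehicle. The lowest sample with both treatments was well above the highest sample of EV + vehicle, and the log2 fold change was 1.10 (SE 0.14, adjusted p = 2.27e-05). *vit-1* rose by 1.03 and *vit-6*, *vit-3*, *vit-4* and *vit-2* by 0.75, 0.73, 0.69 and 0.64, while *rme-2*, which encodes the receptor that takes yolk into oocytes, rose by 0.40. Of these, *vit-2*, *vit-4* and *rme-2* were named after their values were seen. The *vit-3*, *vit-4* and *vit-5* sequences are near copies of one another and may share reads. Of 23 genes of glycolysis and gluconeogenesis 13 were higher, each by a small amount, and 0 lower (56.5% and 0%, against 11.5% and 14% of all genes). With centring 17 were higher and 0 lower. *pck-2*, the gene of a phosphoenolpyruvate carboxykinase, had 1192, 1214, 1246 and 1164 CPM in *ech-6* RNAi + P-80 against 961, 936, 953 and 957 CPM in EV + vehicle. Its replicates differed little, and the log2 fold change of 0.34 (SE 0.03) had an adjusted p of 1.33e-06. The phosphofructokinase gene *pfk-1.1* rose by 0.30. *icl-1*, the bifunctional gene of the glyoxylate cycle that lets worms make sugar from fat, fell by 0.52 (adjusted p = 3.35e-06), and *idh-1*, which encodes an NADP-dependent isocitrate dehydrogenase, rose by 0.50 (adjusted p = 3.70e-06).

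Chaperone genes were mostly at or below the untreated level. Of 18 genes of the unfolded protein response of the endoplasmic reticulum (ER) 11 were lower and 0 higher (61.1% and 0%, against 14% and 11.5% of all genes). With centring 4 were lower. *dnj-27*, the gene of an ER chaperone partner, had 21.5, 17.2, 24.9 and 18.4 CPM in *ech-6* RNAi + P-80 against 38.0, 30.1, 36.6 and 42.1 CPM in EV + vehicle, and fell by 0.84 (adjusted p = 7.58e-05). The ER chaperone gene *hsp-4* (-0.35) and the disulfide isomerase gene *pdi-2* (-0.51) fell as well. Of 23 heat shock genes 9 were lower and 3 higher (39.1% and 13%, against 14% and 11.5% of all genes), or 7 and 5 with centring. *hsp-16.41*, a small heat shock protein gene, had 2.72, 2.84, 1.77 and 4.59 CPM in *ech-6* RNAi + P-80 and 9.45, 8.69, 10.6 and 10.1 CPM in EV + vehicle, and fell by 1.78 (SE 0.20, adjusted p = 5.26e-06). Its log2 fold change was -1.41 with *ech-6* RNAi alone and -0.39, not called, with P-80 alone, and the same order held in *hsp-16.2* (-1.35 with both, -1.33 with *ech-6* RNAi alone and -0.39 with P-80 alone). The heat shock genes *F44E5.4* and *F44E5.5*, which stood at -1.5 and -1.47, are near copies of each other, so that reads may be split between them, and the *hsp-16* genes also have close relatives. Of 14 genes of the mitochondrial unfolded protein response 1 was higher and 3 lower (7.14% and 21.4%, against 11.5% and 14% of all genes). These became 3 and 1 with centring. The lower ones were *dve-1*, a regulator gene of that response (-0.55), and the chaperone genes *hsp-60* (-0.15) and *hsp-6* (-0.14), the last 2 not being called with centring.

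Among the detoxification genes, far ones were found in each family. Of 62 UDP-glycosyltransferase genes 21 were higher (10 of them far) and 12 lower (3 far), or 33.9% and 19.4%, against 11.5% and 14% of all genes. *ugt-26* had 139, 241, 154 and 148 CPM in *ech-6* RNAi + P-80 against 40.2, 42.2, 45.5 and 39.3 CPM in EV + vehicle, and rose by 1.99 (adjusted p = 1.11e-07), while *ugt-57* fell by 2.03 (adjusted p = 0.000925). Of 74 cytochrome P450 genes 11 were higher (3 far) and 11 lower (9 far), or 14.9% each, close to the 11.5% and 14% of all genes. The fallen ones included *cyp-35A5* (-2.09), *cyp-35C1* (-1.48) and *cyp-35A2* (-1.23), genes of a subfamily known for its response to foreign compounds. Of 48 glutathione S-transferase genes 9 were higher (4 far) and 6 lower (0 far), or 18.8% and 12.5%, against 11.5% and 14% of all genes. These became 13 and 1 with centring, with 3 lower without EV + vehicle replicate 1 and 2 lower without EV + vehicle replicate 4 or *ech-6* RNAi + P-80 replicate 2. *gst-4*, a widely used reporter gene of the oxidative stress factor SKN-1, had 71.9, 82.1, 69.0 and 76.0 CPM in *ech-6* RNAi + P-80 and 35.6, 31.3, 34.3 and 30.4 CPM in EV + vehicle. It rose by 1.18 (SE 0.08, adjusted p = 5.08e-09), against 0.41 with P-80 alone and 0.75 with *ech-6* RNAi alone, and it was higher with both treatments than with either one (0.77, adjusted p = 3.08e-05, and 0.44, adjusted p = 0.00263). In a separate list of 24 antioxidant genes 3 were higher and 5 lower (12.5% and 20.8%, against 11.5% and 14% of all genes), none of them far. These became 6 and 0 with centring, and the lower count ran from 2 to 5 with 1 sample left out. The glutathione peroxidase gene *gpx-3* rose by 0.85, while *skn-1*, the gene of SKN-1, was among the lower ones.

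Of 89 immune response genes 22 were higher and 20 lower (24.7% and 22.5%, against 11.5% and 14% of all genes), or 32 and 19 with centring. Of them 13 were far lower and 2 far higher, against 5.14% and 0.937% of all genes. Below *irg-5*, the antimicrobial peptide genes *cnc-2* and *nlp-30* and the saposin-like gene *spp-13* fell (-1.95, -1.89 and -1.93). *cnc-2* had 2.54, 1.85, 3.55 and 1.83 CPM in *ech-6* RNAi + P-80 against 9.58, 8.12, 8.18 and 10.9 CPM in EV + vehicle, and was called lower with each treatment alone as well (-1.24 with P-80 and -1.42 with *ech-6* RNAi). Of 162 C-type lectin genes 28 were higher and 19 lower, or 38 and 17 with centring. The higher ones made up 17.3%, against 11.5% of all genes, and the share of lower ones was below the 14% of all genes. *clec-47* had 8.47, 18.7, 12.2 and 9.12 CPM in *ech-6* RNAi + P-80 and 2.67, 2.28, 2.35 and 2.87 CPM in EV + vehicle, and rose by 2.18 (adjusted p = 4.70e-07). Its highest sample was replicate 2, as for *acdh-2* and *C09B8.4*. *clec-43* rose by 2.02, and *clec-86* fell by 2.46 with 3 to 23 reads per sample in *ech-6* RNAi + P-80.

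**Figure D4:**
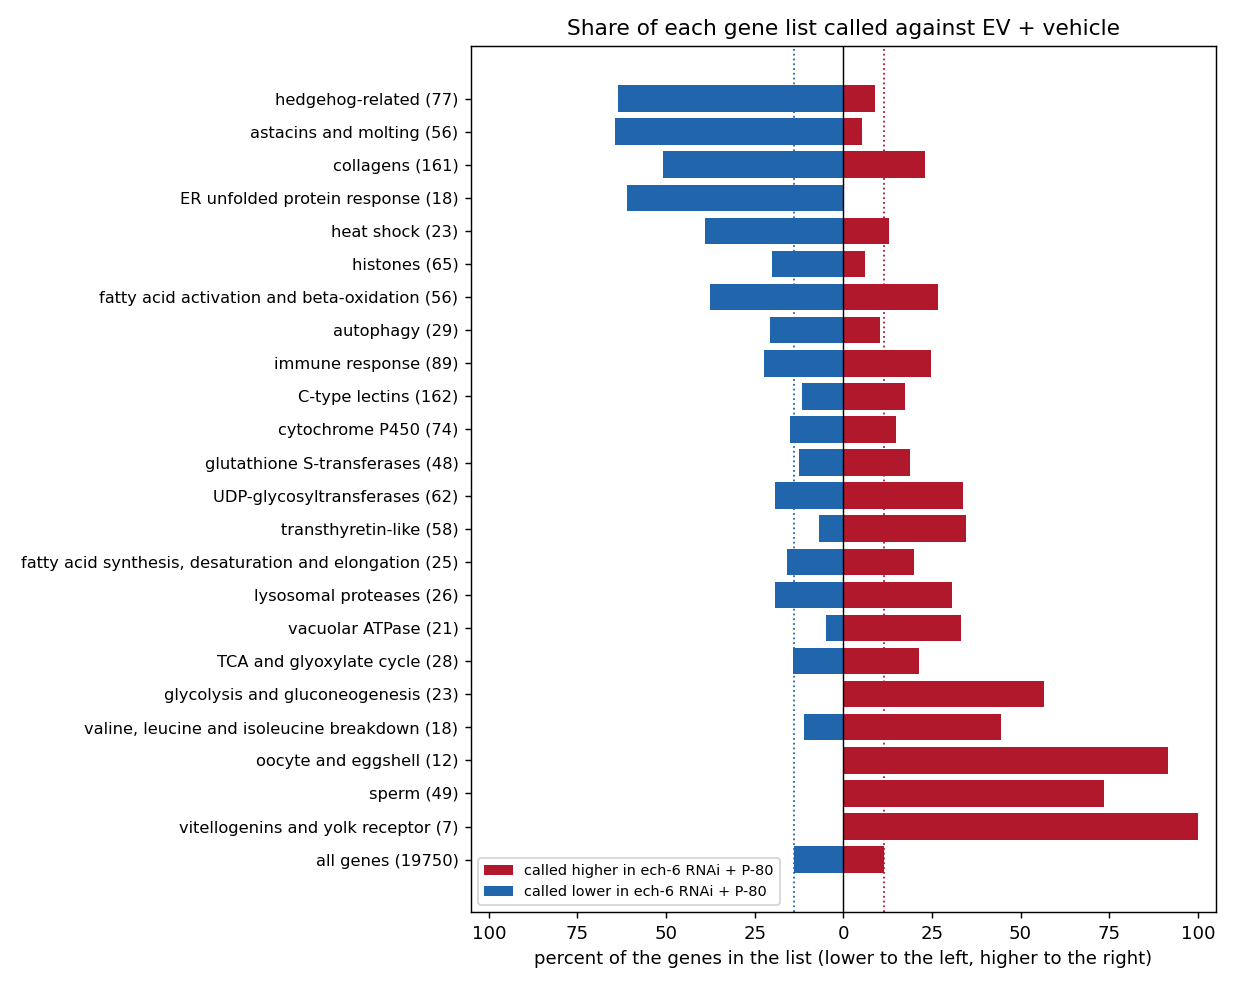
Percent of the genes of each list called higher (bars to the right) and lower (bars to the left) in *ech-6* RNAi + P-80 than in EV + vehicle, with dotted lines at the percent of all genes (11.5 higher, 14 lower). The yolk, oocyte and sperm lists reach farthest to the right, and the molting, hedgehog-related and ER lists farthest to the left.

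Many of the far lower genes belong to the cuticle and to molting, the shedding of the old cuticle between larval stages. Of 77 hedgehog-related genes 49 were lower and 7 higher (63.6% and 9.09%, against 14% and 11.5% of all genes), with a median of -1.05. Of 161 collagen genes 82 were lower and 37 higher (50.9% and 23%), with a median of -0.79. Of 56 astacin protease and molting genes 36 were lower and 3 higher (64.3% and 5.36%), with a median of -0.74. Together these lists held 293 genes, of which 122 (41.6%) were far lower, against 5.14% of all genes, and they made up 12% of the 1016 far lower genes. With P-80 alone the list medians were -0.88, -0.57 and -0.51, and with *ech-6* RNAi alone -0.38, -0.23 and -0.27.

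The samples of *ech-6* RNAi + P-80 differed among themselves in these genes. *mlt-10*, a molting gene of the epidermis, had 16.0, 15.1, 36.9 and 13.8 CPM in *ech-6* RNAi + P-80, against 96.4, 57.3, 61.7 and 101 CPM in EV + vehicle. Replicate 3 stood above the other 3 but below every EV + vehicle sample, and the gene fell by 2.03 (SE 0.33, adjusted p = 0.000149). *grl-5*, of the hedgehog-related family, had 7.11, 7.03, 15.7 and 7.34 CPM in *ech-6* RNAi + P-80 and 51.3, 28.1, 28.3 and 55.2 CPM in EV + vehicle, and fell by 2.15 (SE 0.33, adjusted p = 9.31e-05). The cuticle collagen gene *dpy-7* had 6.18, 4.19, 11.6 and 5.73 CPM in *ech-6* RNAi + P-80 against 33.2, 21.1, 24.3 and 37.6 CPM in EV + vehicle, and fell by 2.13 (SE 0.39, adjusted p = 0.000465). In each of these genes EV + vehicle replicates 1 and 4 stood above replicates 2 and 3. Others of this kind were the collagen genes *col-41*, *col-128*, *col-46* and *dpy-3* (-2.41, -2.4, -2.38 and -2.35), the hedgehog-related genes *wrt-10* and *grd-2* (-2.41 and -2.12), and *lpr-3*, *mlt-11* and *lpr-1* (-2.35, -2.11 and -2.10), of which *lpr-3* and *lpr-1* encode lipocalins that shape the outer cuticle layer. *nhr-25*, the gene of a nuclear receptor needed for molting, fell by 1.40 (adjusted p = 0.000198).

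Of the collagen genes 37 were higher, among them *col-19* of the adult cuticle, and 82 were lower, among them *bli-1* and *bli-2*. *col-19*, which is switched on at the last molt, had 1820, 1747, 1705 and 1728 CPM in *ech-6* RNAi + P-80, against 1031, 1209, 1276 and 1002 CPM in EV + vehicle, and rose by 0.64 (SE 0.07, adjusted p = 4.98e-06). The genes of oocytes and eggshell were higher as well, in 11 of 12 (91.7%, against 11.5% of all genes). Their median was 0.43, against 0.31 with P-80 alone and 0.29 with *ech-6* RNAi alone. *perm-2* and *perm-4* of the eggshell stood at 0.97 and 0.63 and the oocyte gene *puf-5* at 0.48. *perm-2* had 134, 132, 130 and 127 CPM in *ech-6* RNAi + P-80 and 64.9, 72.9, 76.3 and 55.1 CPM in EV + vehicle, without overlap. Of 49 sperm genes 36 were higher and 0 lower (73.5% and 0%, against 11.5% and 14% of all genes). Their median was 0.42, against 0.30 with P-80 alone and 0.19 with *ech-6* RNAi alone. *msp-36*, which encodes a major sperm protein and shares sequence with the other genes of that family, stood at 0.57. The level of each list, taken as the mean deviation of its genes from their mean over all 16 samples on the log2 scale, showed how far this held in each sample. For the molting list it was -0.63, -0.61, -0.00 and -0.48 in *ech-6* RNAi + P-80 against 0.46, 0.29, 0.38 and 0.71 in EV + vehicle. For the oocyte list it was 0.20, 0.28, 0.09 and 0.20 in *ech-6* RNAi + P-80 against -0.36, -0.09, -0.22 and -0.41 in EV + vehicle, so that in both lists replicate 3 of *ech-6* RNAi + P-80 was the sample of its group nearest to EV + vehicle.

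**Figure D5:**
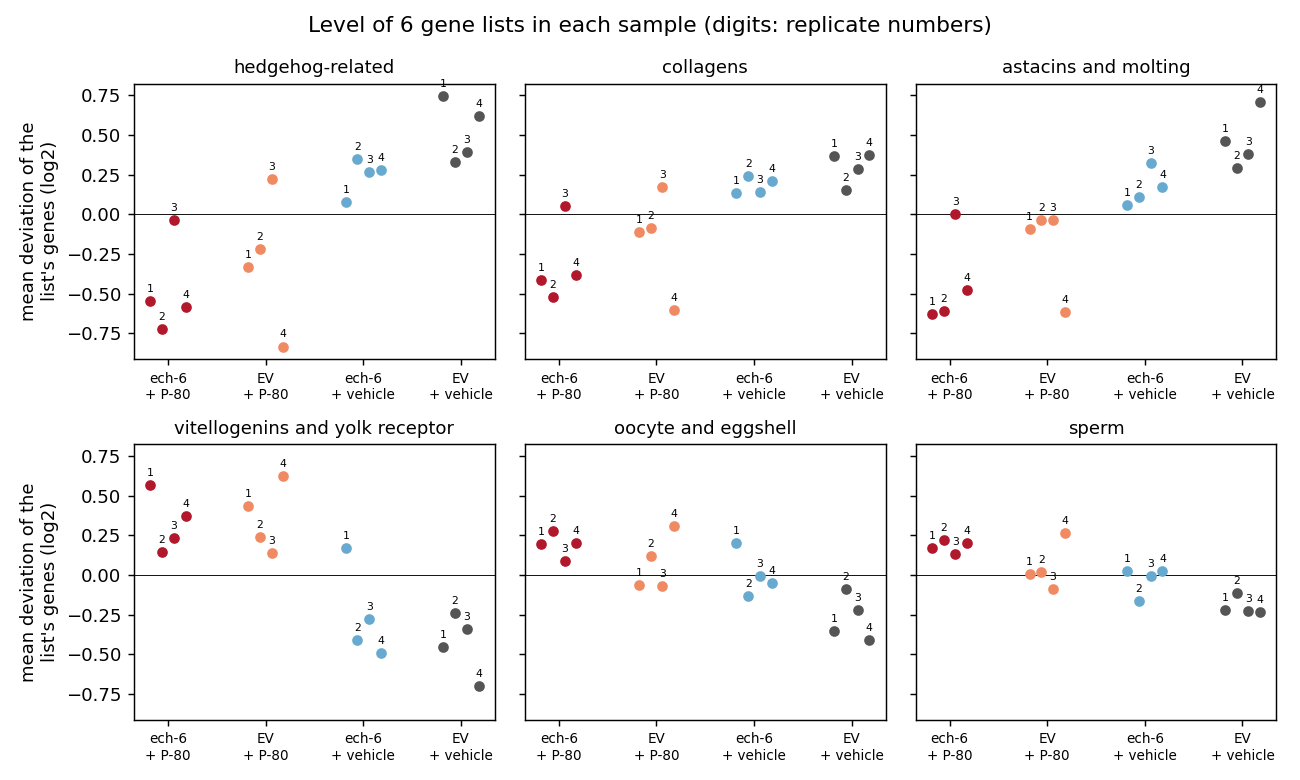
Mean deviation (log2) of the genes of 6 lists from their mean over all 16 samples, 1 point per sample with its replicate number, *ech-6* RNAi + P-80 first and EV + vehicle last. The hedgehog-related, collagen and molting lists are low and the yolk, oocyte and sperm lists high in *ech-6* RNAi + P-80, with replicate 3 nearest to EV + vehicle in the cuticle and oocyte lists.

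Without *ech-6* RNAi + P-80 replicate 3, a check of the lists added after the data were seen, 2445 genes were higher and 2953 lower, of which 1403 were far. The counts of lower genes were then 48 of the 77 hedgehog-related, 85 of the 161 collagen and 38 of the 56 molting genes, and those of higher genes 36 of the 49 sperm and 11 of the 12 oocyte genes. The part of tissue composition or developmental stage in these values was not tested. The summed level of the 12 oocyte and eggshell genes ran from 3370.5 to 4012.7 CPM in *ech-6* RNAi + P-80 and from 2553.7 to 3132.3 CPM in EV + vehicle, that of the 49 sperm genes from 3133.7 to 3461.0 and from 2316.8 to 2763.9 CPM, and that of 5 intestine genes from 954 to 1042 and from 986 to 1047 CPM. It ran from 12653 to 13815 CPM in *ech-6* RNAi + P-80 and from 11739 to 12338 CPM in EV + vehicle for 5 body wall muscle genes, from 82.9 to 90.7 and from 95.7 to 102.3 CPM for 5 neuron genes, and from 1763 to 1861 and from 1161 to 1394 CPM for 5 hypodermis genes, a sum led by *col-19*. With limma 0 of the 5 intestine genes were called and 1 had an unadjusted p under 0.05 (*ges-1*, named after its values were seen, -0.21, adjusted p = 0.0594), with 1 called lower without EV + vehicle replicate 2, EV + P-80 replicate 3 or replicate 4, or *ech-6* RNAi + P-80 replicate 3. Of the other tissues 3 of the muscle genes were higher (*mlc-2* by 0.28) and 1 of the neuron genes was lower (*snb-1*, -0.29), with 2 lower neuron genes without EV + vehicle replicate 2. Of 5 genes of the hypodermis, the worm epidermis, *dpy-7*, *rol-6* and *wrt-2* fell and *col-19* rose, and without EV + vehicle replicate 2 a further one was higher. No defining gene of these tissues was at 0 reads in any of the 8 samples, apart from 1 sperm gene in each of EV + vehicle replicates 2 and 3.

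Most ribosomal protein and proteasome genes were not called. Of 83 ribosomal protein genes 3 were higher and 6 lower (3.61% and 7.23%, against 11.5% and 14% of all genes), with a median of -0.01. These counts became 5 and 26 with quantile normalization and 28 and 0 with centring, so that their direction depends on the scaling. Without EV + vehicle replicate 1, 2 of these genes were lower. Of 33 proteasome genes 0 were higher and 2 lower (0% and 6.06%, against 11.5% and 14% of all genes), *pas-6* (-0.14) and *pbs-5* (-0.11). With centring 5 were higher and 0 lower. Only 1 was lower without EV + vehicle replicate 2 or replicate 4 or *ech-6* RNAi + vehicle replicate 2 or replicate 4. None was lower without EV + vehicle replicate 1 or *ech-6* RNAi + P-80 replicate 2 or replicate 3, and 2 were higher without the last of these. Of the 12 respiratory genes of mitochondrial DNA 2 were lower (16.7%, against 14% of all genes), *nduo-2* (-1.01) and *nduo-3* (-0.61). The call of *nduo-2* was lost with 1 library left out, any of EV + vehicle replicates 1 and 4 or *ech-6* RNAi + P-80 replicates 1, 2 and 3. It was also lost without the trend, with robust estimation, with only the 8 samples compared and with sample weights. Of 65 histone genes 13 were lower and 4 higher (20% and 6.15%, against 14% and 11.5% of all genes). These became 10 and 11 with centring, and 2 were higher without *ech-6* RNAi + P-80 replicate 1 or replicate 2. The linker histone gene *his-24* stood at -1.10 (adjusted p = 1.82e-05). Of 225 nuclear hormone receptor genes 32 were lower and 12 higher (14.2% and 5.33%, against 14% and 11.5% of all genes). These became 19 and 20 with quantile normalization and 17 and 31 with centring. Of 58 transthyretin-like genes 20 were higher and 4 lower (34.5% and 6.9%, against 11.5% and 14% of all genes), with *ttr-22* at 1.31.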

How the data were processed

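Whole-worm total RNA was depleted of ribosomal RNA and sequenced from strand-specific libraries. According to the study's methods and the submitters' processing notes, the authors trimmed reads with Trimmomatic 0.32, aligned them to WBcel235 with HISAT2 2.0.4, counted them on Ensembl 91 genes with HTSeq 0.6.1 using read direction, dropped genes that did not exceed 2 reads in 4 or more libraries, and applied TMM scaling. As deposited the numbers are log2 CPM with a small constant added by the authors, although the header says CPM, and undoing the log gave whole reads for 314359 of 314359 values under 20000 reads (100.0%, tolerance 0.05 read). Totals were 15306307 to 28129104 reads, with 16.5 to 20.7% on rRNA genes, and p-values reflect the spread between 4 samples a group, whose independence as cultures is not stated.

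The log2 CPM were fitted with limma 3.58.1 (R 4.3.3; 1 mean per group over all 16 samples, empirical Bayes with trend, two-sided, Benjamini-Hochberg over 19750 genes, threshold 0.05), tested on simulated data first. Tables were made with Python 3.11.15, pandas 2.3.3 and scipy 1.17.1. Coordinates came from Ensembl 115, which lacked 85 of the genes.

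Genes were named by rule: the 8 highest and 8 lowest called genes with a mean of at least 0 log2 CPM and no overlap, up to 5 genes back at the untreated level per single treatment, *ech-6*, its operon neighbours and its family, 10 lysosomal genes of the study, and per list up to 4 called genes of largest change among those with a mean of at least 0 log2 CPM. Other names are marked as chosen after their values were seen, apart from genes given by name only and the 2 just outside the 8. Members and lists were chosen with earlier results of these data known. Alternatives were no trend, robust estimation, a 1 CPM minimum, log2(CPM + 1), quantile normalization, median centring, only the 8 samples compared, sample weights, voom on the recovered reads, a replicate block, other margins, and each sample left out.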

Additional observations from a re-analysis of the deposited data

Results flagged for a closer look

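For each of 184 named genes the highest or lowest of the 4 samples of a group was set against the nearest of the other 3, and its gap is given as a share of the range of the group on the log2 scale. Gaps beyond Dixon's 95% critical value for 4 samples were found in 15 of 368 groups, where chance alone gives about 1 in 20.

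In 10 of these the sample that stood apart was in *ech-6* RNAi + P-80. Replicate 3 was high in *grl-5* (15.7 CPM against 7.03 to 7.34, 0.9468 of the range), *mlt-10* (36.9 CPM against 13.8 to 16.0, 0.8497) and *icl-1* (770 CPM against 647 to 663, 0.8589). Replicate 2 was high in *gst-38* (15.6 CPM against 8.70 to 9.52, 0.8453) and low in *cpt-5* (32.9 CPM against 40.7 to 42.3, 0.8401), *epg-3* (32.1 CPM against 38.4 to 38.8, 0.9348) and *ech-2* (23 CPM against 24.9 to 25.2, 0.8970). Replicate 1 was low in *mmaa-1* (54.2 CPM against 56.0 to 56.2, 0.8821). Replicate 4 was high in *perm-4* (110 CPM against 99.8 to 101, 0.9277) and low in *ttr-27* (24.8 CPM against 26.5 to 26.7, 0.9092).

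In the other 5 it was in EV + vehicle. Replicate 4 was low in *cpr-5* (229 CPM against 252 to 255, 0.9075) and *perm-4* (54.1 CPM against 69.2 to 72.3, 0.8523) and high in *cyp-35C1* (25.7 CPM against 14.1 to 15.4, 0.8529). Replicate 1 was high in *hphd-1* (148 CPM against 140 to 141, 0.8848) and *asp-12* (1.5 CPM against 1.07 to 1.14, 0.8312).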

How the results depend on the processing

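Of the values recomputed with other settings, 1749 of 1838 kept their side of the threshold, 68 lost the call, 9 gained one and 11 moved. The remaining 1 was a called gene that changed sign, *pbs-5* with centring (0.016). Signs of genes that were not called are left out of these counts. Some of them changed: over all settings *lipl-4* ran from -0.29 to 0.07 and *fat-7* from -0.32 to 0.24. With 1 sample left out 2831 of 2944 held, 106 lost the call, 2 gained one, 5 moved and 0 called genes changed sign. The number of genes called at least 2-fold was 616 on log2(CPM + 1), where further genes of low level stood nearer to 0 (*lipl-3* 0.69, *fat-5* 1.42, *asp-17* -0.995, *ugt-57* -1.15, *nhr-25* -0.80, *ttr-22* 0.76, all still called), and the number called higher was 4516 with centring. With samples left out the counts ran from 1665 to 2445 (higher), 2193 to 2953 (lower) and 1017 to 1403 (at least 2-fold), the lowest without EV + vehicle replicate 1 for higher and lower. Genes back at the untreated level after a shift of at least 2-fold numbered 2 (P-80) and 1 (*ech-6* RNAi) with a 2-fold margin, and 1 for *ech-6* RNAi with centring. For P-80 the number ranged from 0 to 1 with samples left out, the 1 without EV + P-80 replicate 2. For shifts of any size (14 and 9) it was 6 and 1 without the trend, and 19 for *ech-6* RNAi with sample weights. The cause of these changes was not tested.

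Between *ech-6* RNAi + P-80 and EV + vehicle, the deviations of samples with one number correlated at -0.08, 0.18, -0.14 and -0.08. Those of samples with unlike numbers ran from -0.30 to 0.23, so that no pairing by number was seen between these groups. The other groups were not checked in this way. With the replicate number as a block 2268 genes were higher, 2748 lower and 1191 at least 2-fold, and 25 and 18 genes were back after shifts of any size. Genes under about 1 CPM rest on few reads, which widens their intervals beyond the margin.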
